A study of Sus scrofa with 29 samples.

Results

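DNA replication and cell cycle genes were followed in the luminal lining of 2 pig arteries, with and without treadmill training. The members were taken by gene symbol: replication licensing factors, replication polymerases and their clamp and clamp loader, topoisomerase 2A, cyclins, cyclin-dependent kinases, centromere proteins, checkpoint, Aurora and polo-like kinases, CKS proteins and E2F factors. Symbols of CDC or CDK followed by a digit were all taken, which brings in genes outside these classes, such as CDC37, CDC123 and CDK5RAP3. Of the 6765 genes with a single symbol on the array, 72 matched these patterns. The 9 whose symbol starts with CDC42, a small GTPase and its partners, were left out by the rule, which left 63 members on 85 probe sets. A probe set is the group of array probes read as 1 value. Each gene was represented by its probe set with the highest mean over all arrays, and all 63 members were tested without a filter on low values. MKI67, CDK1, CCND1 and BUB1, which a reader may look for, are not among the probe sets with a single symbol.

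The study compared healthy pigs that ran on a treadmill for 16 to 20 weeks with pigs that were confined to their enclosures. Training reached bouts of 85 min on 5 days a week by week 10, and arteries were taken about 24 h after the last bout. The brachial artery of the forelimb gave 7 arrays of sedentary and 7 of exercised pigs, and the internal mammary artery, which runs inside the chest, gave 7 and 8. No group carried a genetic change or a drug treatment, and breed, sex and age are not given in the sources used here. In all, 15 pigs were sampled on 29 arrays, with both arteries of 14 pigs and only the mammary artery of the exercised pig 12_2. The RNA came from scraping the opened lumen, so a sample is enriched for endothelium and is not a pure cell type. A bulk value cannot tell a larger share of dividing cells from more transcript per cell.

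Before a cell divides, origin recognition proteins (ORC) and the MCM helicase are loaded on DNA, CDC45 helps to switch the helicase on, and the polymerases copy the strands held by the PCNA clamp. Cyclins with their kinases drive each step, topoisomerase 2A untangles the copied chromosomes, and centromere proteins with the checkpoint hold them until the anaphase-promoting complex lets them part. Endothelium of a healthy adult artery is known to divide rarely, so these transcripts are usually scarce there. Several members share a family name with these genes and act elsewhere, or elsewhere as well. CDK9 serves transcription, and CDK7 with CCNH serves both transcription and the cell cycle. CDK5 is best known in neurons, and PLK2 is a stress- and activity-induced kinase.

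The deposited values are log2 array intensities, from 1.97 to 14.79 over all probe sets, with array medians between 7.13 and 7.28. One step on this scale is a doubling. Levels of different probe sets cannot be ranked against each other, so every comparison below stays within a probe set. By their means over all arrays, 9 members lay in the dimmest tertile of probe sets (below 5.96), where the room to see a difference is smaller. They were CCNA2, CCNB2, CCNH, CDC25C, CENPF, CENPT, ORC1, PLK1 and POLE2. The measured endothelial markers, 9 of 10 listed, averaged 10.86, 10.93, 11.08 and 10.96 in the sedentary brachial, exercised brachial, sedentary mammary and exercised mammary groups. The mean hides markers that moved apart in the mammary artery. There 7 of the 9 had a positive training change, with a median of 0.08, and the changes ran from -2.14 for VWF to 0.43 for CLDN5. The 7 measured smooth muscle markers averaged 12.72, 12.48, 12.10 and 11.78 in the same order, so muscle RNA was present in every group. The 8 measured macrophage markers averaged 9.25, 8.69, 9.31 and 9.27, which makes the exercised brachial group the lowest. The 7 measured T cell markers averaged 5.82, 5.62, 5.51 and 5.57. CD79B, a B cell receptor chain and the only 1 of 7 B cell markers measured, averaged 5.89, 6.49, 6.48 and 7.95. A log2 intensity has no zero, so the absence of a marker cannot be read from these values. The source field of the exercised mammary samples reads sedentary, against their titles and treatment tags, and the titles were followed.

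Training was compared with confinement in each artery, over the mean of both arteries and between arteries, with limma across 23999 probe sets and Benjamini-Hochberg adjustment at 0.05. In the mean of both arteries 6 of the 63 members passed (9.52%, against 4.68% of all probe sets). The 5 that rose were the licensing and helicase genes MCM2, CDC45 and MCM5, and CDC5L and CDK5RAP3 (7.94%, against 2.88% of all probe sets higher). The 1 that fell was PLK2 (1.59%, against 1.8% lower). CDC5L, CDK5RAP3 and PLK2, 3 of these 6 calls, were grouped as other CDC, CDK and polo-like genes. The share of members called is therefore not one of replication genes alone. In the brachial artery 3 members passed (4.76%, against 1.63%): CDC5L rose (1.59%, against 1.02% higher), and PLK2 and PCNA fell (3.17%, against 0.613% lower). In the internal mammary artery no member passed, where 0.596% of all probe sets did. By limma's unadjusted p under 0.05, 20 members were counted there (31.7%, against 12.3% of all probe sets), 17 of them with higher values after training. All probe sets are an unlike set, since a tertile of them is dim and 13732 have no symbol. With the dimmest tertile left out, 6 of 54 members passed in the mean of both arteries, beside 1055 of 15999 probe sets. In the brachial artery 3 of 54 passed, beside 512 of 15999, and in the mammary artery 2 of 54, beside 186.

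The median change over the 63 members was 0.049 in the brachial artery, 0.046 in the mammary artery and 0.050 in their mean, against 0.0113, 0.00519 and 0.00954 over all probe sets. Members with a positive change numbered 37, 39 and 40 (58.7%, 61.9% and 63.5%, against 53.4%, 52.0% and 53.3% of all probe sets). The members come from the same pigs and some move together, so signs counted here and by role are not independent. In no member did the sedentary and exercised ranges stand apart in either artery. How many of all probe sets have ranges that stand apart was not computed.

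**Figure D1:**
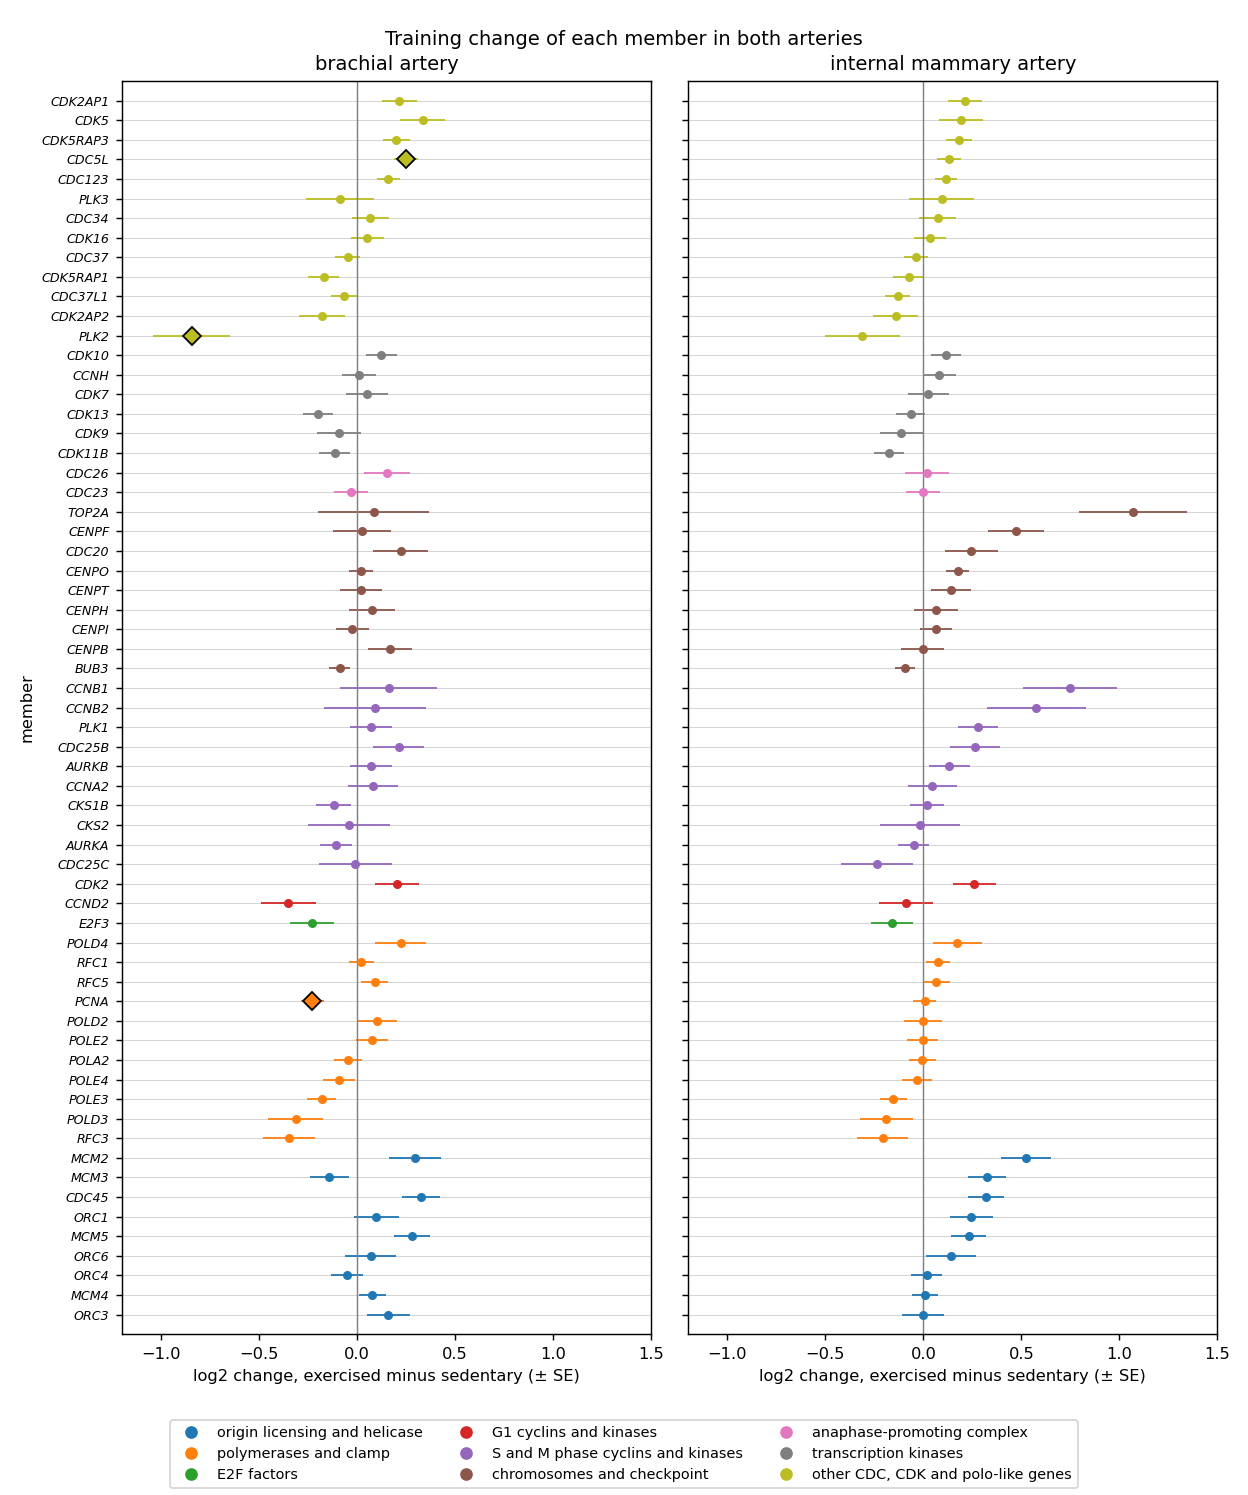
Log2 change of each of the 63 members with training, exercised minus sedentary, with its standard error, in the brachial artery (left) and the internal mammary artery (right). Colours give the members' roles and diamonds the 3 changes with an adjusted p under 0.05 (CDC5L, PLK2 and PCNA, all brachial). TOP2A and CCNB1 lie farthest to the right in the mammary artery, at 1.07 and 0.75, and near 0 in the brachial artery.

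The largest difference in the mammary artery was that of TOP2A. Its log2 intensity ran from 5.10 to 6.82 with a median of 5.93 in the 7 sedentary pigs, and from 6.30 to 8.03 with a median of 7.06 in the 8 exercised pigs. All 8 exercised arteries lay above the sedentary mean of 6.04, while the ranges overlapped between 6.30 and 6.82. The difference was 1.07 ± 0.27 (SE), a factor of 2.1, with an adjusted p of 0.0615. It passed the threshold in 2 of the alternative fits and not in the other 28. In the brachial artery TOP2A ran from 6.00 to 7.20 in sedentary and from 6.24 to 8.00 in exercised pigs, with medians of 6.80 and 6.44. The brachial difference was 0.08 ± 0.28 (adjusted p = 0.929). By its mean the sedentary mammary group was the lowest of the 4, and both brachial groups lay between it and the exercised mammary group.

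CCNB1, the cyclin that opens mitosis with CDK1, had the same order of groups. It ran from 5.18 to 6.22 (median 5.64) in sedentary and from 5.76 to 7.57 (median 6.39) in exercised mammary arteries, a difference of 0.75 ± 0.24 (adjusted p = 0.142). CENPF, a kinetochore protein made late in the cycle, ran from 5.39 to 6.07 (median 5.58) and from 5.83 to 6.58 (median 6.01), a difference of 0.47 ± 0.14 (adjusted p = 0.124). For both genes every one of the 8 exercised mammary arteries lay above the sedentary mean, and neither passed the threshold. The second mitotic cyclin, CCNB2, differed by 0.58 ± 0.25 (adjusted p = 0.334). CENPF and CCNB2 lay in the dimmest tertile of probe sets.

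MCM2, a subunit of the helicase ring, was the member nearest the threshold in the mammary artery. It ran from 7.32 to 8.08 (median 7.73) in sedentary and from 7.92 to 8.68 (median 8.08) in exercised pigs, with all 8 exercised arteries above the sedentary mean. The difference was 0.52 ± 0.13 with an adjusted p of 0.0507. It passed with the collection period as a factor (adjusted p = 0.0313) or fitted in each artery (0.0335), with the dimmest tertile of probe sets left out (adjusted p = 0.0418) and without pigs 10_2 (0.0424), 14_3 (0.0489) or 17_1 (0.0377), and over all alternatives the adjusted p ran from 0.0313 to 0.835. MCM3, a second subunit, ran from 6.30 to 6.71 in sedentary and from 6.59 to 7.09 in exercised mammary arteries, a difference of 0.32 ± 0.10 (adjusted p = 0.112). CDC45 ran from 7.94 to 8.54 and from 8.22 to 8.77, a difference of 0.32 ± 0.09 (adjusted p = 0.106). The CDC45 difference passed in 1 of the alternative fits and not in the other 29.

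**Figure D2:**
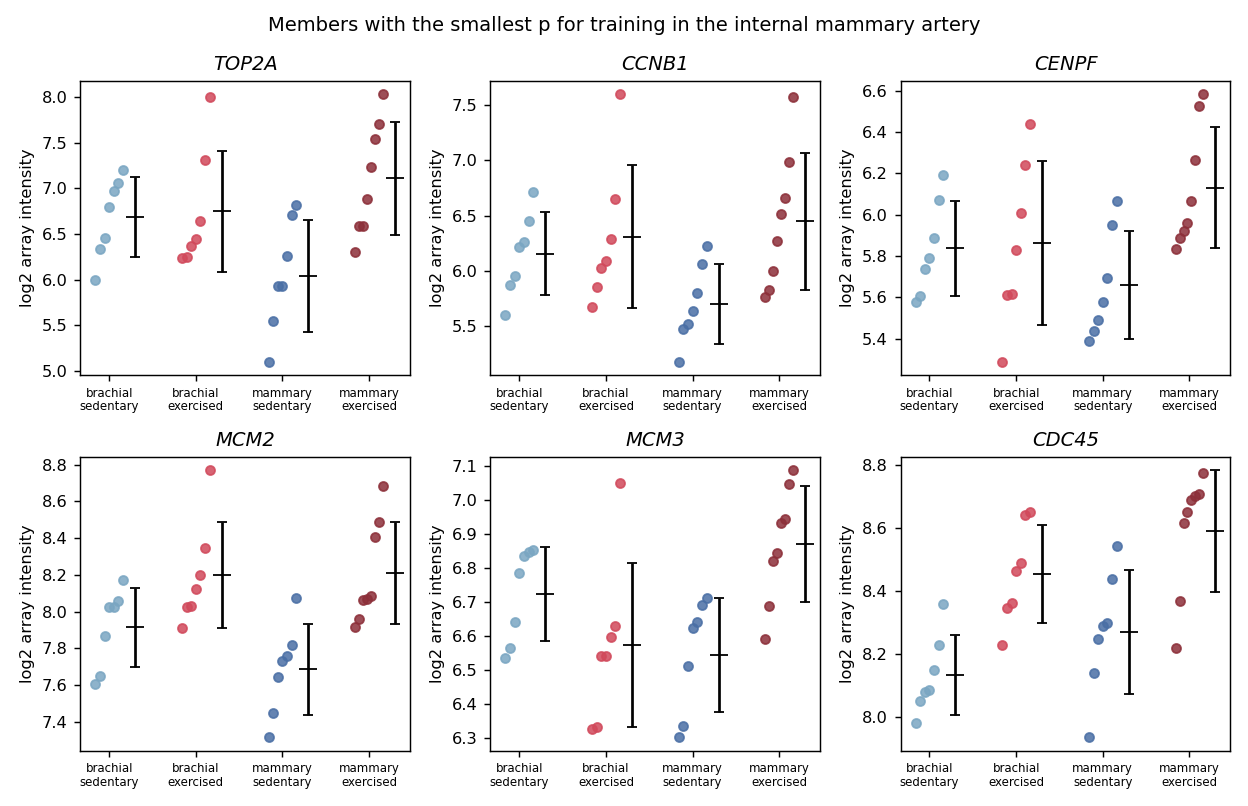
Log2 array intensity of the 6 members with the smallest p for training in the internal mammary artery; each point is 1 artery of 1 pig, and the bars give the group mean and SD (7, 7, 7 and 8 arrays). In the mammary groups most exercised points sit above most sedentary points in all 6 panels, with overlapping ranges. In the brachial groups TOP2A, CCNB1 and CENPF overlap nearly throughout.

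The mammary differences were not of the same size in pigs collected early and late, by the dates in the labels. Among the 8 early pigs (4 sedentary and 4 exercised) TOP2A differed by 1.76 ± 0.38, and among the 7 late pigs (3 and 4) by 0.27 ± 0.28. MCM2 differed by 0.83 ± 0.17 in the early and 0.19 ± 0.11 in the late pigs. CCNB1 differed by 1.12 ± 0.34 and 0.35 ± 0.28, and CENPF by 0.68 ± 0.18 and 0.22 ± 0.22. MCM3 was as large in both, at 0.31 ± 0.14 and 0.35 ± 0.13. None of these within-period differences passed the threshold (adjusted p from 0.138 to 0.94), and the difference between periods was not tested.

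Other measures moved with the same groups. CD79B was higher in exercised than in sedentary mammary arteries by 1.46 ± 0.31 (adjusted p = 0.0244), while the T cell marker mean was 5.51 in sedentary and 5.57 in exercised arteries. The 28S/18S ratio of the RNA, a measure of its integrity, was 1.19 ± 0.08 (SD, n = 7) in sedentary and 1.33 ± 0.08 (SD, n = 8) in exercised mammary arteries. With that ratio as a covariate the mammary difference was 1.03 ± 0.30 for TOP2A (adjusted p = 0.0839), 0.66 ± 0.25 for CCNB1 (0.211) and 0.46 ± 0.14 for MCM2 (0.0908). With the T cell marker mean and CD79B as covariates it was 0.99 ± 0.38 for TOP2A (adjusted p = 0.499), 0.85 ± 0.33 for CCNB1 (0.499) and 0.44 ± 0.18 for MCM2 (0.533). The differences therefore stayed positive with wider errors, and under the lymphocyte covariates the mammary calls over the whole array went from 143 probe sets to 0.

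The 3 licensing genes that rose in the mean of both arteries had a positive change in each artery. CDC45 rose by 0.32 ± 0.07, a factor of 1.25 (adjusted p = 0.0112). Its brachial values ran from 7.98 to 8.36 in sedentary and from 8.23 to 8.65 in exercised pigs, a difference of 0.32 ± 0.10, and 7 of 7 exercised brachial and 7 of 8 exercised mammary arteries lay above the sedentary mean. MCM2 rose by 0.41 ± 0.10, a factor of 1.33 (adjusted p = 0.0195). In the brachial artery MCM2 ran from 7.61 to 8.17 in sedentary and from 7.91 to 8.77 in exercised pigs, a difference of 0.30 ± 0.13 (adjusted p = 0.271) beside 0.52 ± 0.13 in the mammary artery. The gap between these MCM2 differences, -0.23 ± 0.16, did not pass (adjusted p = 1.0). MCM5, another helicase subunit, rose by 0.26 ± 0.07 (adjusted p = 0.0350). It ran from 7.10 to 7.50 in sedentary and 7.36 to 8.05 in exercised brachial arteries, and from 7.13 to 7.34 and 7.15 to 7.84 in the mammary arteries.

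Not every helicase or origin gene moved with them. Of the 9 licensing and helicase members 3 rose (33.3%, against 2.88% of all probe sets) and none fell. In the mean of both arteries 8 had a positive change, as 53.3% of all probe sets did, with a median of 0.10. MCM4 differed by 0.04 ± 0.05 and ORC4 by -0.02 ± 0.06. Further probe sets of the rising genes gave smaller values. The 2 other probe sets of MCM2 differed by 0.14 and 0.18 (adjusted p = 0.385 and 0.0925), those of MCM5 by 0.04 and 0.08 (0.839 and 0.638), and that of CDC45 by 0.11 (0.161). For CDC45 the second probe set was near 0 in the brachial artery, where the first gave 0.32.

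The calls for MCM2 and CDC45 held without any 1 of the 15 pigs. For MCM5 the call was lost without pig 10_1, 11_1, 11_4, 12_3, 12_5 or 15_1 (adjusted p up to 0.0931). With the T cell marker mean and CD79B as covariates none of the 3 passed: the adjusted p was 0.277 for MCM2, 0.259 for CDC45 and 0.0926 for MCM5. With the mean of the macrophage markers as covariate MCM2 was at 0.0560, MCM5 at 0.0942 and CDC45 was still called. A separate fit without a pig term compared the means of both arteries in the 14 pigs with both. In that fit MCM2 was at 0.0872, MCM5 at 0.136 and CDC45 was again called. MCM5 was lost with the smooth muscle marker mean too (0.0553). The calls over the whole array fell as well, from 1123 probe sets to 90 with the T cell and CD79B covariates. They fell to 336 with the macrophage covariate and to 364 in the separate fit. Over all alternatives the adjusted p ran from 0.00744 to 0.513 for MCM2, from 0.00236 to 0.358 for CDC45 and from 0.0155 to 0.544 for MCM5. The early and late differences over both arteries were 0.65 ± 0.14 and 0.18 ± 0.09 for MCM2, 0.39 ± 0.10 and 0.25 ± 0.10 for CDC45, and 0.27 ± 0.09 and 0.23 ± 0.12 for MCM5.

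CDC5L and CDK5RAP3 also rose in the mean of both arteries. CDC5L, a splicing factor named after a yeast cell cycle gene, rose by 0.19 ± 0.05 (adjusted p = 0.0229), and CDK5RAP3, a cofactor of the UFM1 protein-tagging enzymes, by 0.19 ± 0.05 (adjusted p = 0.0370). The second probe set of CDK5RAP3 gave 0.22 (adjusted p = 0.0365), whereas the second of CDC5L gave -0.069 (adjusted p = 0.849). The CDC5L call was lost without pig 11_4, 12_5, 13_2, 14_3 or 15_2 (adjusted p up to 0.0537). The CDK5RAP3 call was lost without pig 10_5, 11_1, 11_3, 12_2, 12_5, 13_2, 15_1, 15_2 or 17_1 (adjusted p up to 0.0935). Both calls were also lost in the separate fit of the 14 pigs with both arteries (adjusted p = 0.0968 for CDC5L and 0.168 for CDK5RAP3). The same held with the macrophage covariate (0.115 and 0.223) and with the T cell and CD79B covariates (0.130 and 0.339). The CDK5RAP3 call was lost with the smooth muscle marker mean too (0.0549).

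PLK2 was the member that fell most with training. Its brachial values ran from 9.11 to 10.13 (median 9.70) in sedentary and from 8.11 to 9.38 (median 8.81) in exercised pigs, and 7 of 7 exercised arteries lay below the sedentary mean. The brachial change was -0.84 ± 0.20, a factor of 1.79 lower (adjusted p = 0.0250). In the mammary artery the ranges were 9.46 to 10.94 and 9.41 to 10.45, and the difference was -0.31 ± 0.19 (adjusted p = 0.546). In the mean of both arteries PLK2 fell by 0.58 on the log2 scale (SE 0.15, adjusted p = 0.0259). The early and late brachial differences were close, at -0.82 ± 0.21 and -0.96 ± 0.32. The brachial call was lost without pig 10_5 (adjusted p = 0.0662) and in a fit of the brachial arrays alone (0.0636). It was also lost with the T cell and CD79B covariates (0.0728), with the macrophage covariate (0.282) and in the early or the late pigs alone (0.138 and 0.343). Over all alternatives its adjusted p ran from 0.00933 to 0.343. The call in the mean of both arteries was lost without pig 10_5, 11_3, 11_4, 13_2 or 15_4 (adjusted p up to 0.0652). It was lost in the separate fit of the 14 pigs with both arteries (0.108) and in the early or the late pigs alone (0.0928 and 0.376). The 28S/18S ratio (0.0642), macrophage (0.116) or T cell and CD79B covariates (0.0635) ended it too.

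PCNA, the sliding clamp of the polymerases, fell in the brachial artery. It ran from 9.82 to 10.12 in sedentary and from 9.64 to 9.86 in exercised pigs, with 7 of 7 exercised arteries below the sedentary mean, and the change was -0.23 ± 0.06 (adjusted p = 0.0378). In the mammary artery PCNA ran from 9.86 to 10.15 and from 9.91 to 10.20, a difference of 0.01 ± 0.06. In the brachial artery CDC5L ran from 10.82 to 11.08 in sedentary and from 11.02 to 11.37 in exercised pigs and rose by 0.25 ± 0.06 (adjusted p = 0.0377), while its second probe set gave -0.13 (adjusted p = 0.798). The CDC5L call was lost without pig 10_2, 10_5, 11_4, 12_5, 13_2, 14_3, 15_1, 15_2 or 17_1 (adjusted p up to 0.110). The PCNA call was lost without pig 10_2, 10_5, 11_3, 11_4, 12_3, 12_5, 15_1, 15_2 or 17_1 (adjusted p up to 0.101). With the macrophage covariate the adjusted p was 0.356 for CDC5L and 0.441 for PCNA. In a fit of the brachial arrays alone it was 0.133 and 0.127, and with the T cell and CD79B covariates 0.116 and 0.201. Under these settings the brachial calls over the whole array went from 392 probe sets to 5, 122 and 43, so the loss was not limited to the members. With array weights PCNA alone of the 3 was lost (0.0540). The macrophage marker mean was itself 8.69 ± 0.22 (SD, n = 7) in exercised and 9.25 ± 0.34 (SD, n = 7) in sedentary brachial arteries.

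**Figure D3:**
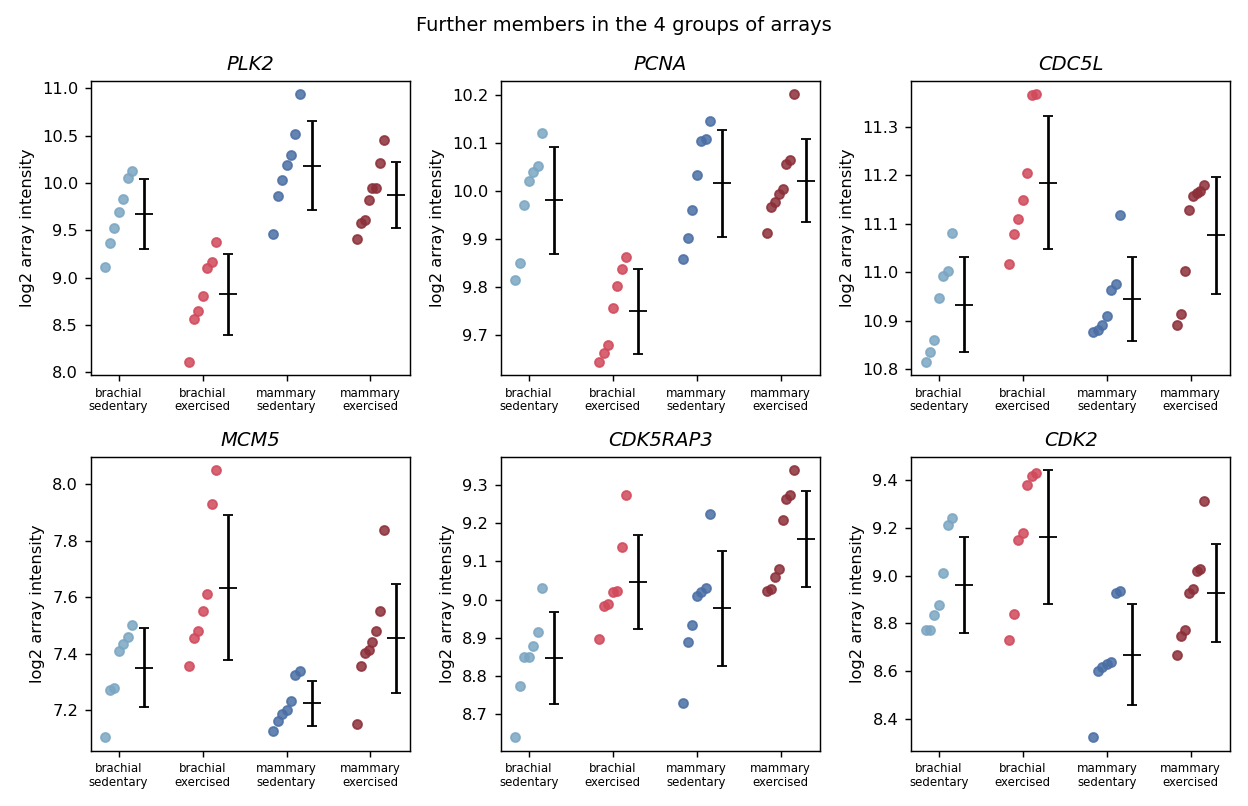
Log2 array intensity of PLK2, PCNA, CDC5L, MCM5, CDK5RAP3 and CDK2 in the 4 groups; each point is 1 artery of 1 pig, and the bars give the group mean and SD (7, 7, 7 and 8 arrays). PLK2 and PCNA are lowest in the exercised brachial group, where PLK2 lies between 8.11 and 9.38 and PCNA between 9.64 and 9.86.

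Whether training acted differently in the arteries was tested by subtracting the mammary from the brachial training change. No member passed, and no probe set of the array did (0%). By limma's unadjusted p under 0.05, 6 members were counted (9.52%, against 4.31% of all probe sets). MCM3 gave the smallest p, with -0.47 ± 0.12 (adjusted p = 0.681): its brachial difference was -0.14 ± 0.10 and its mammary difference 0.32 ± 0.10. PCNA gave -0.24 ± 0.07 (adjusted p = 0.886) and TOP2A -0.99 ± 0.34 (adjusted p = 0.949). CENPF, PLK2 and CENPO, a kinetochore protein, gave -0.45 ± 0.18, -0.53 ± 0.24 and -0.15 ± 0.07. A different training change in the arteries was therefore not shown for any member. Of the 63, 25 had a positive and 38 a negative difference (39.7% positive, against 51.4% of all probe sets). The members share pigs and some move together, so these signs are not independent.

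The roles did not move alike in size or sign. Of the 11 polymerase and clamp members only PCNA passed, in the brachial artery, and the median change in the mean of both arteries was -0.03. RFC3, a clamp loader subunit, and POLD4, a small polymerase delta subunit, marked the ends of this group at -0.28 and 0.20. Of the 10 S and M phase cyclins and kinases none passed in a training comparison, and the mean-of-arteries values ran from -0.12 for CDC25C, the phosphatase that activates CDK1, to 0.45 for CCNB1. PLK1, which drives entry into mitosis, ran from 4.81 to 5.24 in sedentary and from 5.21 to 5.61 in exercised mammary arteries, a difference of 0.28 ± 0.10 (adjusted p = 0.222). AURKA, a spindle pole kinase, differed by -0.05 ± 0.08 and CCNA2, the S phase cyclin, by 0.05 ± 0.13 in the mammary artery. PLK1, CDC25C and CCNA2 lay in the dimmest tertile, with CCNA2 between 3.80 and 4.82 over all arrays.

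Of the 9 chromosome and checkpoint members none passed with training. In the mean of both arteries 8 had a positive change, from 0.58 for TOP2A to 0.019 for CENPI, where 53.3% of all probe sets were positive. BUB3, a checkpoint protein, was the exception at -0.09. CDC20, which activates the anaphase-promoting complex, differed by 0.23 ± 0.11 (adjusted p = 0.246). The complex's own subunits CDC23 and CDC26 differed by -0.018 and 0.085. The 6 members grouped as transcription kinases, CDK7 and CCNH among them, lay between -0.15 for CDK11B and 0.12 for CDK10. In the G1 group CCND2, the D-type cyclin, differed by -0.22 ± 0.11 (adjusted p = 0.286) and CDK2, the kinase of the step into S phase, by 0.23 ± 0.09 (adjusted p = 0.128). All 3 CDK2 probe sets gave positive values, of 0.16, 0.18 and 0.23. E2F3, an activator of S phase genes, differed by -0.20 ± 0.09 (adjusted p = 0.216). The 13 other CDC, CDK and polo-like genes held 2 calls in the brachial artery and 3 in the mean of both arteries. Those are 15.4% and 23.1% of the 13, against 1.63% and 4.68% of all probe sets. Between arteries 10 of the 13 passed (76.9%, against 54.3%).

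Within groups, the pigs with high TOP2A also had high CCNB1. Each array's deviation from its group mean was averaged over the arteries of a pig, and TOP2A was set against the 6 other well-known members that have a probe set. Over 15 pigs CCNB1 gave r = 0.864 (permutation p = 0.00018, adjusted over 6 relations 0.00108) and rho = 0.793 (p = 0.00082, adjusted 0.00492). Without pigs 10_1 and 12_2, the farthest in TOP2A, r was 0.823, and it was 0.866 in the early and 0.912 in the late pigs. MCM2 gave r = 0.711 (permutation p = 0.0048, adjusted 0.0144) and rho = 0.750 (p = 0.00202, adjusted 0.00606), with r = 0.513 without the same pigs, 0.862 in the early and 0.628 in the late pigs.

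The remaining relations did not pass a permutation test. For PLK1 r was 0.494 (adjusted p = 0.151) and rho 0.136 (0.623), and r was 0.152 without pigs 10_1 and 12_2. For CCNA2 r was 0.434 (adjusted p = 0.177) and rho 0.154 (0.623), and r was 0.0529 without them, so the value rests on those pigs. For PCNA r was 0.352 (adjusted p = 0.235) and rho 0.332 (0.458), with 0.414 without them. For AURKA r was 0.0708 (adjusted p = 0.819) and rho 0.225 (0.618), with -0.119 without them. Over single arrays, as a description of 29 arrays that share pigs, the members most like TOP2A were CCNB2 (r = 0.86), CCNB1 (0.86), CENPF (0.81), CDC20 (0.78), ORC1 (0.67) and MCM2 (0.64). Between the 45 pairs of S and M phase members the median r was 0.29, and between all 1953 pairs of members it was 0.07.

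**Figure D4:**
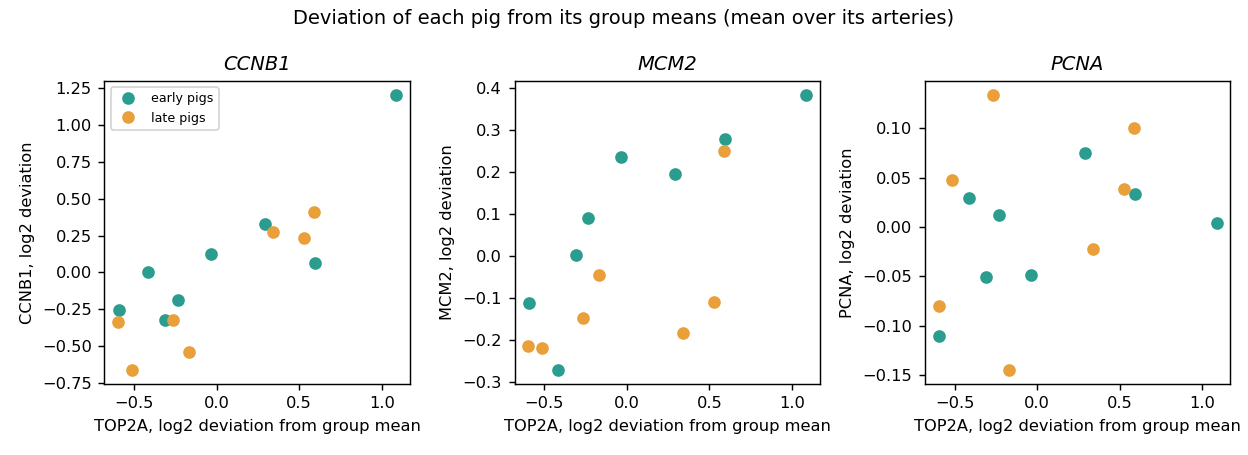
Deviation of TOP2A (horizontal axis) and of CCNB1, MCM2 or PCNA (vertical axis) from the group means, in log2 units, averaged over the arteries of a pig; each point is 1 of 15 pigs, coloured by collection period. CCNB1 climbs with TOP2A (r = 0.864), MCM2 less tightly (r = 0.711), and PCNA shows a loose scatter (r = 0.352). Pig 10_1 is the point at the far right.

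The arteries themselves differed in far more members than training did. Of the 63 members 30 passed between the brachial and the internal mammary artery (47.6%, against 54.3% of all probe sets), so the share of members was near the share of the whole array. Higher in the brachial artery were 17 (27%, against 31.8%) and lower 13 (20.6%, against 22.5%). The split moved with the scaling, to 22 higher and 8 lower with arrays centred on their median and to 20 and 8 with a second quantile normalization, with 25 and 24 of the 30 calls shared. Over all probe sets 9432 were higher and 4165 lower after centring, in place of 7631 and 5395, and 6790 and 5123 after the second normalization. The median over the members was 0.03, as it was over all probe sets (0.03). With the dimmest tertile left out, 14 members were higher and 14 lower in the brachial artery, beside 4174 and 4807 of 15999 probe sets. The median over those 15999 was -0.021. In 11 of the 63 members the brachial value lay on the same side of the mammary value in all 14 pigs. The share of all probe sets that do so was not computed, so this count cannot be read as particular to the members.

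CCND2 showed the largest artery difference. It ran from 12.29 to 12.54 in sedentary and from 12.21 to 12.60 in exercised mammary arteries, and from 11.15 to 11.84 and 10.49 to 11.81 in the brachial arteries, so the arteries did not overlap. Brachial values were lower in 14 of 14 pigs, by 0.58 to 1.79, and the difference was -1.05 ± 0.09, a factor of 2.06 (adjusted p = 6.1e-11). PLK2 was lower in 13 of 14 brachial arteries, by -0.78 ± 0.12 (adjusted p = 3.27e-06). E2F3 was lower in 14 of 14, by -0.44 ± 0.07 (adjusted p = 4.06e-06). The origin recognition subunits ORC4 and ORC3 were lower in 14 of 14, by -0.40 ± 0.05 and -0.33 ± 0.07, and so was CDC37L1, a co-chaperone, by -0.29 ± 0.04 (adjusted p from 1.06e-07 to 0.000148).

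Higher in the brachial artery were MCM4 by 1 of its 2 probe sets, PLK1, CENPT, CDC34, CDK2 and CDK5. MCM4 ran from 6.59 to 7.09 in the mammary and from 7.02 to 7.45 in the brachial arteries and was higher in 14 of 14 pigs, by 0.42 ± 0.04 (adjusted p = 1.97e-09). Its second, dimmer probe set went the other way, by -0.21 ± 0.04 (adjusted p = 7.8e-05), so no direction holds for the gene. PLK1 was higher in 13 of 14 pigs, by 0.35 ± 0.06, and CENPT, a kinetochore protein, in 13 of 14, by 0.34 ± 0.06. Both lie in the dimmest tertile of probe sets. Without that tertile fewer of the array's calls were higher (4174) than lower (4807) in the brachial artery. Whether the differences of PLK1 and CENPT share in this lean of dim probe sets was not tested. CDC34, a ubiquitin-conjugating enzyme of the G1 to S step, was higher in 14 of 14, by 0.31 ± 0.06, CDK2 in 13 of 14, by 0.26 ± 0.07, and CDK5 in 12 of 14, by 0.25 ± 0.07 (adjusted p from 3.7e-05 to 0.00301). TOP2A and CCNB1 gave 0.16 ± 0.17 and 0.16 ± 0.15 and did not pass. Among the licensing members MCM5 was called higher in the brachial artery, while MCM2 did not pass.

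**Figure D5:**
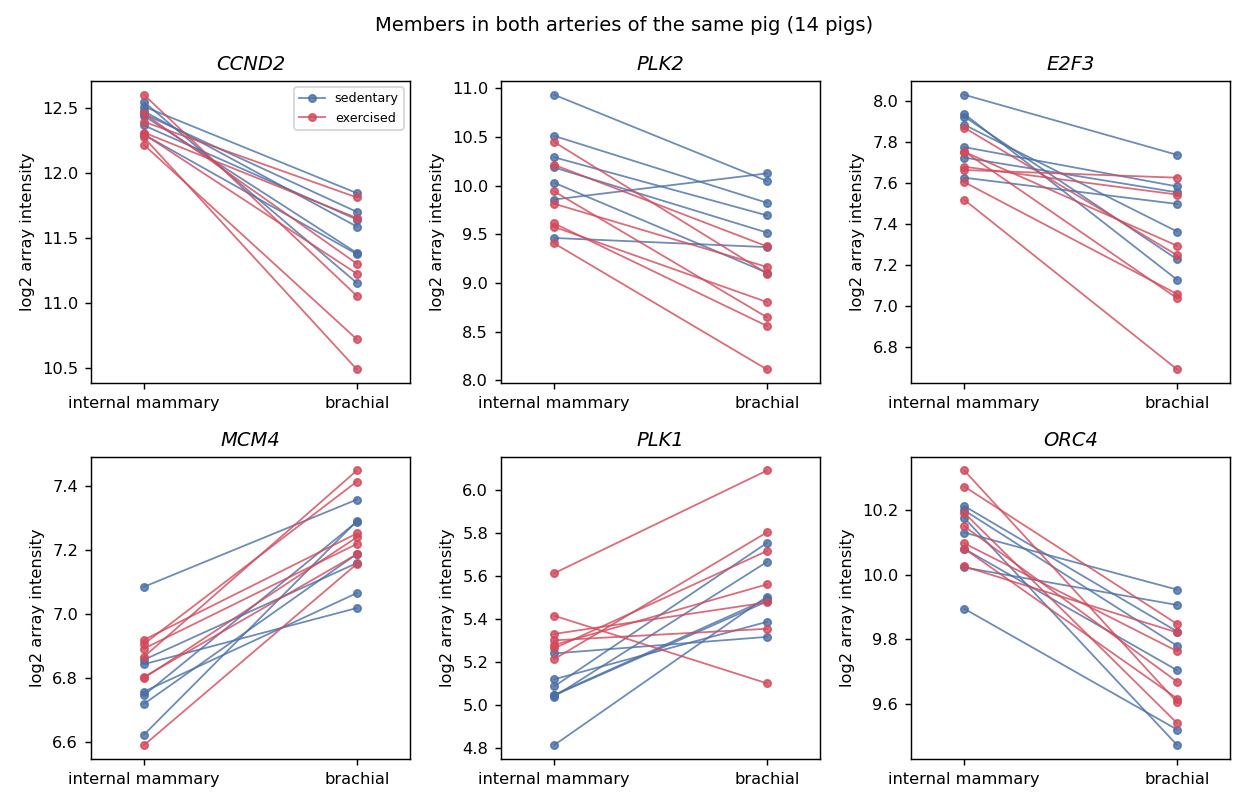
Log2 array intensity of CCND2, PLK2, E2F3, MCM4, PLK1 and ORC4 in the internal mammary and brachial arteries; each line joins the 2 arteries of 1 of 14 pigs, sedentary or exercised. CCND2, E2F3 and ORC4 fall in 14 of 14 pigs, MCM4 climbs in 14 of 14, and PLK2 and PLK1 have 1 pig each that goes the other way.

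The smooth muscle marker mean was higher in brachial (12.72 and 12.48) than in mammary arteries (12.10 and 11.78), and CD79B was lower, by -0.99 ± 0.19 (adjusted p = 7.65e-05). All 7 muscle markers were higher, from 0.06 for SMTN to 2.11 for DES, with a median of 0.18. The 28S/18S ratio averaged 1.38 and 1.41 in sedentary and exercised brachial and 1.19 and 1.33 in mammary arteries. With the T cell marker mean and CD79B as covariates 17 members passed between arteries in place of 30, while over all probe sets 8276 passed in place of 13026. The 28S/18S ratio as a covariate left 22 members and 11047 probe sets, and the macrophage marker mean 23 and 10981. The ORC3 call ended under the T cell and CD79B covariates (adjusted p = 0.0820) and among the late pigs alone (0.0748). The PLK1 call ended among the late pigs alone (0.0647). The CDK2 call ended among the early pigs alone (0.151) and with the period fitted in each artery (0.146). The CDK5 call ended under 5 alternatives, the 28S/18S ratio and the macrophage marker mean among them (0.0596 and 0.0622). The part of other cell types in the artery differences was not tested further.

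A list of 65 further proliferation genes that the symbol patterns do not take in had 34 measured genes. None of them passed with training in either artery or in their mean. In the mammary artery 28 of 34 had a positive change, as 52.0% of all probe sets did, with a median of 0.16. An unadjusted limma p under 0.05 was found for 13 (38.2%, against 12.3% of all probe sets). In the mean of both arteries 31 were positive, as 53.3% of all probe sets were, with a median of 0.12. These genes were read in the same pigs, so their signs are not independent. NUSAP1, a spindle protein, ran from 7.63 to 8.43 in sedentary and from 8.17 to 9.46 in exercised mammary arteries, a difference of 0.60 ± 0.16 (adjusted p = 0.0772). DLGAP5, another spindle protein, differed there by 0.74 ± 0.23 (adjusted p = 0.135), HMMR, a hyaluronan receptor that also acts at the spindle, by 0.63 ± 0.20 (0.142), and TYMS, which makes thymidylate for DNA, by 0.41 ± 0.15 (0.220). FEN1, which trims Okazaki fragments, differed in the brachial artery by -0.21 ± 0.07 (adjusted p = 0.120). Between arteries 15 passed (44.1%, against 54.3% of all probe sets), 9 higher and 6 lower in the brachial artery (26.5% and 17.6%, against 31.8% and 22.5%), among them FOXM1, a factor for mitotic genes, at 0.36 ± 0.05 and HMGB2, a chromatin protein, at -0.41 ± 0.07.

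Of 10 cell cycle inhibitors 6 were measured, and 1 passed with training, in the mean of both arteries (16.7%, against 4.68% of all probe sets). CDKN2D, which blocks the D-type cyclin kinases, ran from 7.90 to 8.95 in sedentary and from 8.81 to 9.73 in exercised brachial arteries, and from 7.78 to 8.83 and 8.69 to 9.67 in mammary arteries. It rose by 0.49 ± 0.12 in the mean of both arteries (adjusted p = 0.0212), with 7 of 7 and 8 of 8 exercised arteries above the sedentary mean. The CDKN2D call was not examined under the alternative fits. CDKN1A, the p53-induced inhibitor p21, differed by -0.58 ± 0.31 (adjusted p = 0.320) and varied widely between pigs, from 8.13 to 10.95 in exercised mammary arteries. CDKN1B, CDKN2C and RBL2 were lower in the brachial than in the mammary artery, by -0.16 ± 0.05, -0.25 ± 0.05 and -0.14 ± 0.05 (adjusted p = 0.00988, 0.000150 and 0.0188). They are 50% of the measured inhibitors, against 22.5% of all probe sets lower there.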

How the data were processed

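RNA of luminal scrapes was hybridised to single-colour oligonucleotide arrays. The authors deposited log2 intensities per probe set. The submitters' processing notes name affy, and the background correction, summary and normalization are not given in the sources used here. The 124 control probe sets were left out, leaving 23999, of which 10069 had 1 gene symbol in the platform annotation, 198 several and 13732 none. Symbols with several entries, such as those of CDK6 and RFC2, were not members. The members, roles and lists were chosen with earlier results of these data known.

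A linear model per probe set (limma 3.58.1, R 4.3.3) held the 4 groups as means, and the pig entered as a random effect (duplicateCorrelation), since the labels give both arteries the same pig identifier. Moderated tests were adjusted by Benjamini-Hochberg over all probe sets at 0.05. Pigs are taken as separate animals, and their number limits the precision. Deviations from group means were correlated over pigs with 100000 permutations, two-sided (scipy 1.17.1). The fit was tested on simulated data.

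Named were all members past the threshold (at most the 12 largest changes), the smallest p up to 6 where fewer passed, up to 6 genes of each other list, and 11 well-known members, of which TOP2A, PCNA, MCM2, CCNA2, CCNB1, AURKA and PLK1 had a probe set. The members at the ends of each role were added after their values were seen. Alternatives changed the block, scaling, prior, weights, filter on dim probe sets, probe set, covariates and collection period (the 8 pigs first and the 7 last by date, a split taken from earlier work), or left out 1 pig. The separate fits held no pig term. They took each artery alone, or the mean or difference of the arteries in the 14 pigs with both. The fits of each period alone, the T cell and CD79B covariates, the period within arteries and the CDC42 genes were added after seeing the data. Plots used matplotlib 3.10.9 and Python 3.11.15.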

Additional observations from a re-analysis of the deposited data

Results flagged for a closer look

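For the named members, 100 groups of arrays were checked for a single array far from the rest, and 4 stood apart. Chance gives about 1 in 20. Of the 4, 3 came from pig 10_1, an exercised pig. CCNA2 was 4.79 in its mammary artery, where the next of the 8 exercised arteries was 4.16. MCM3 was 7.05 in its brachial artery, where the next of 7 was 6.63. CDC34 was 10.22 in the same artery, where the next was 9.82. The fourth was CDC5L in the mammary artery of the sedentary pig 11_1, at 11.12 against 10.98 for the next of 7. TOP2A and CCNB1 of pig 10_1 were the highest of their groups in both arteries, at 8.03 and 7.57 in the mammary and 8.00 and 7.60 in the brachial artery. Without pig 10_1 the mammary differences were 0.94 for TOP2A and 0.59 for CCNB1.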

How the results depend on the processing

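Counts of members passing depended on the settings. In the brachial artery 3 became 0 in the separate fit of the brachial arrays and in the early or the late pigs alone. The macrophage covariate and the T cell and CD79B covariates also gave 0. In the mammary artery 0 became 2 with the dimmest tertile left out, and 1 with collection period as a factor, with period fitted in each artery and with the macrophage covariate. In the mean of both arteries 6 became 10 with no replicate block, and 1 in the separate fit, with the macrophage covariate or in the early pigs alone. It became 0 in the late pigs alone or with the T cell and CD79B covariates. Between arteries 30 became 12 in the early and 19 in the late pigs alone, 17 with the T cell and CD79B covariates and 19 with period fitted in each artery. The subsets hold fewer pigs, and for the other settings the cause was not tested. Array centring, a second quantile normalization, a trended robust prior and array weights left each total within 1.5 times, but between arteries the members lower in the brachial artery went from 13 to 8 with array centring and to 8 with the second quantile normalization, and those higher from 17 to 22 and 20. The interaction gave 0 throughout.

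Leaving out 1 pig gave 0 to 4 members in the brachial artery, 0 to 2 in the mammary artery, 3 to 8 in the mean of both, 0 to 0 for the interaction and 27 to 31 between arteries. The brachial count was 0 without pig 10_5 and 1 without 10_2, 11_4, 12_5, 15_1, 15_2 or 17_1. The mammary count was 2 without 14_3 and 1 without 10_2 or 17_1. The mean-of-arteries count was 3 without 11_4, 12_5 or 13_2.

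Of 1082 alternative values of the 36 named results, 968 kept direction and side of the threshold, 100 lost the call, 11 gained one and 3 reversed. Reversed were CDC5L with its probe set of largest SD (-0.13 brachial, -0.069 in the mean of both arteries) and the CENPO interaction in the late pigs alone (0.034). No scanner files were used, so signal over background is unknown for the dim members.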
